A study of Rattus norvegicus with 8 samples.

Results

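The genes described here build the kinetochore, run the spindle checkpoint, drive and time chromosome segregation, and hold or compact chromosomes through the structural maintenance of chromosomes (SMC) ATPases. They were chosen by gene symbol alone: the centromere proteins named Cenp with a letter, Bub1, Bub1b and Bub3, the Mad1 and Mad2 family, the Aurora and Polo-like kinases, Ndc80, Nuf2, Spc25, the Ska genes, Incenp, Birc5, the cell division cycle associated (Cdca) genes, Espl1, Pttg1, Sgol2, the SMC genes apart from the meiotic Smc1b, and condensin subunits whose symbol begins with Ncap. Of the 16764 genes in the deposited table, 54 matched, and all 54 passed the filter on low counts that left 12210 genes to test. Cenpe, Spc24, Sgol1 and Ncaph were not analysed here. A few matches have no place in the kinetochore, such as the centriole protein gene Cenpj and Mad2l2, a subunit of a translesion DNA polymerase, and they are described apart from the rest.

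A kinetochore forms on chromatin marked by the centromeric histone Cenpa. A constitutive inner network of Cenp proteins sits on that chromatin and carries the Ndc80 complex, which grips microtubules. Bub and Mad proteins gather at kinetochores that are not attached and hold back anaphase, and the chromosomal passenger complex, with Aurora B as its kinase, corrects wrong attachments. Cohesin holds sister chromatids together until separase cuts it, and condensin compacts them. Spermatogonia divide by mitosis, whereas spermatocytes pass through a long meiotic prophase before dividing, with some components exchanged for germ cell versions, of which Aurora C is an example.

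RNA was sequenced in 3 groups of rat germ cells, with 2 libraries each. Undifferentiated spermatogonia (USg) were a cell line from Brown Norway rats expanded in a medium termed SG, which contains GDNF and FGF. For these cells the protocol puts extraction of RNA at day 0, ahead of plating on laminin, with 0 h in the differentiation medium, although the sample titles carry the same 120 h mark as the next group. Differentiating spermatogonia (DSg) were that line on day 7 on laminin, after 120 h in a medium termed SD, to which all-trans-retinoic acid and neuregulin-1 were added. The spermatocyte group (Spc) was primary rat germ cells enriched by removing cells that stuck to plastic, to collagen-I and then to laminin, so that they are laminin-non-binding cells, and cultured for 2.5 days in medium with 10% fetal bovine serum. Spc thus differed from both cell line groups in source, selection and medium as well as in stage, and these cannot be told apart. Nothing in the labels says that the 2 libraries of a group came from separate cultures or animals, so the p-values measure the spread between these libraries, which may be technical. In bulk RNA, fewer cells of a type and less RNA per cell cannot be told apart.

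Total counts lay between 2657291 and 5697165 per library. The share of ribosomal RNA genes was 7.81% for USg 1, 12.4% for DSg 1 and 0.734% or less for the other 4 libraries, and the 1045 olfactory receptor (Olr) genes summed to 1673 CPM (counts scaled to library size) in DSg 2, against 126.4 to 289.2 CPM elsewhere. The labels were checked against marker genes, given as summed CPM per library. The 9 markers of undifferentiated spermatogonia summed to 1726 and 2002 in USg, 299 and 304.8 in DSg and 187.7 and 210.1 in Spc. In Spc 139.7 and 117.6 of these came from Id4, which was higher there than in USg (1.42, adjusted p = 0.0111), whereas the other 8 were lower. The 5 markers of differentiating spermatogonia summed to 1000 and 995.3 in DSg, against 219.2 to 332.4 in the other groups. Of these, 2 (Kit and Cyp26a1) passed as higher in DSg than in USg. Sohlh1 went the other way without passing (-0.52, adjusted p = 0.626), and Dmrtb1 was highest in Spc (mean 13.7 CPM, against 6.93 in DSg). The 7 pachytene spermatocyte markers summed to 3857 and 4030 in Spc, against 123.6 to 209.7 in the cell line. Of these, 6 passed as higher in Spc than in USg (85.7%, beside 17.9% of all tested genes). Ccna1 did not (0.07, adjusted p = 0.923), and it was lower in Spc than in DSg without passing (-0.96, adjusted p = 0.187). Marker sums of somatic testis cells were also highest in Spc: 1037 and 1302 for Sertoli cells (at most 458.3 in the line), 462.2 and 490.3 for peritubular myoid cells (at most 58.6), 2266 and 2423 for fibroblasts (at most 486.2), 57.4 and 72.3 for macrophages (at most 32.6), and 163 and 174.2 for Leydig cells (at most 21.3), the last carried by Star while the Leydig genes Insl3 and Cyp17a1 stayed at 1.18 CPM or less in Spc. Of the genes tested, 4 of 6 Sertoli, 5 of 5 myoid, 1 of 3 Leydig, 4 of 5 macrophage and 3 of 4 fibroblast markers were higher in Spc than in USg, beside 17.9% of all tested genes. Of the Sertoli sums, 1011 CPM in Spc 1 and 787.3 in Spc 2 came from Clu. Sox9 (-0.23, adjusted p = 0.72) and Fshr (2.87, adjusted p = 0.0974) were the tested Sertoli genes that did not pass against USg. Endothelial markers summed to 27.8 and 37.2 in Spc and to at least 49.3 in the line, but the 4 genes were split. Against USg, Pecam1 and Kdr were lower in Spc, Cdh5 was higher (3.16, adjusted p = 0.0483) and Tek did not pass. Spermatid markers summed to 1.58 and 0.871 in Spc and to at most 16.6 elsewhere. The part of these other cells in the Spc results below was not tested.

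Between USg and DSg, few segregation genes passed the test. A single member, Cdca7l, fell, and none rose: 1 of 54 genes passed an adjusted p of 0.05, beside 2.48% of all tested genes (0.565% higher and 1.92% lower). At an unadjusted p under 0.05 there were 8 of 54 (14.8%), beside 19.2% of all tested genes. Of the 8, 3 belonged to the inner kinetochore, 1 each to the outer kinetochore, the Aurora and passenger group and the Polo-like kinases, and 2 to other roles. DESeq2 called 2 members, Ndc80 as higher and Cdca7l as lower, beside 6.93% of all genes. The median log2 fold change of the members was 0.16, with 0.01 for all genes. The 2 libraries of DSg lay entirely above or below those of USg for 23 members (42.6%), beside 42.3% of all tested genes, a share near that of all genes. Here and below, fold changes are log2 values ± SE from edgeR's quasi-likelihood fit of the 6 libraries (n = 2 per group), adjusted p is the Benjamini-Hochberg value over the 12210 genes, and levels are CPM scaled by edgeR's TMM factors.

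Spc differed from the cell line in both directions. Against USg, 8 members were higher (17.9% of all genes were) and 8 lower (16.6% of all), together 16 of 54, or 29.6%, beside 34.5% of all tested genes. The median log2 fold change was -0.18, with -0.04 for all genes, and libraries did not overlap for 37 members (68.5%), beside 72.4% of all. The genes that rose were Aurkc, Cenpq, Smc4, Cenpk, Bub1, Ncaph2, Smc1a and Cdca5, and those that fell were Cdca7l, Plk1, Cenpa, Aurkb, Cenpm, Mad2l1, Ncapd3 and Spc25. Against DSg, 4 members were higher (14.8% of all genes) and 9 lower (11.7% of all), together 13 of 54, or 24.1%, beside 26.5% of all. The median there was -0.35, with -0.03 for all genes, and 40 members (74.1%) did not overlap, beside 71.1% of all. The shares of 34.5% and 26.5% of all genes, here and below, count both directions. The comparisons with USg and with DSg share the Spc libraries, so their values are given side by side and do not count as independent.

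In the comparisons with Spc, the counts of calls, for members and for all genes alike, fell when a Spc library was left out. Between Spc and DSg they also fell when a DSg library was left out. Without Spc 1, 7 members were called against USg (17.3% of all genes) and 3 against DSg (12.2% of all). Without Spc 2, the counts were likewise 7 (16.8% of all) and 3 (12.6% of all). Without DSg 1, 5 were called against DSg (14.8% of all), and without DSg 2, 6 (16.4% of all). Aurkc, Cdca7l, Cenpq, Plk1 and Smc4 kept their call against USg with each library left out in turn, and Aurkc and Cdca7l kept theirs against DSg. With USg 1 and DSg 1 left out together, so that USg and DSg had 1 library each and were assumed to vary like Spc, 26 members were called between DSg and USg (45.1% of all genes), 33 between Spc and USg (58.8%) and 31 between Spc and DSg (59.1%).

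**Figure D1:**
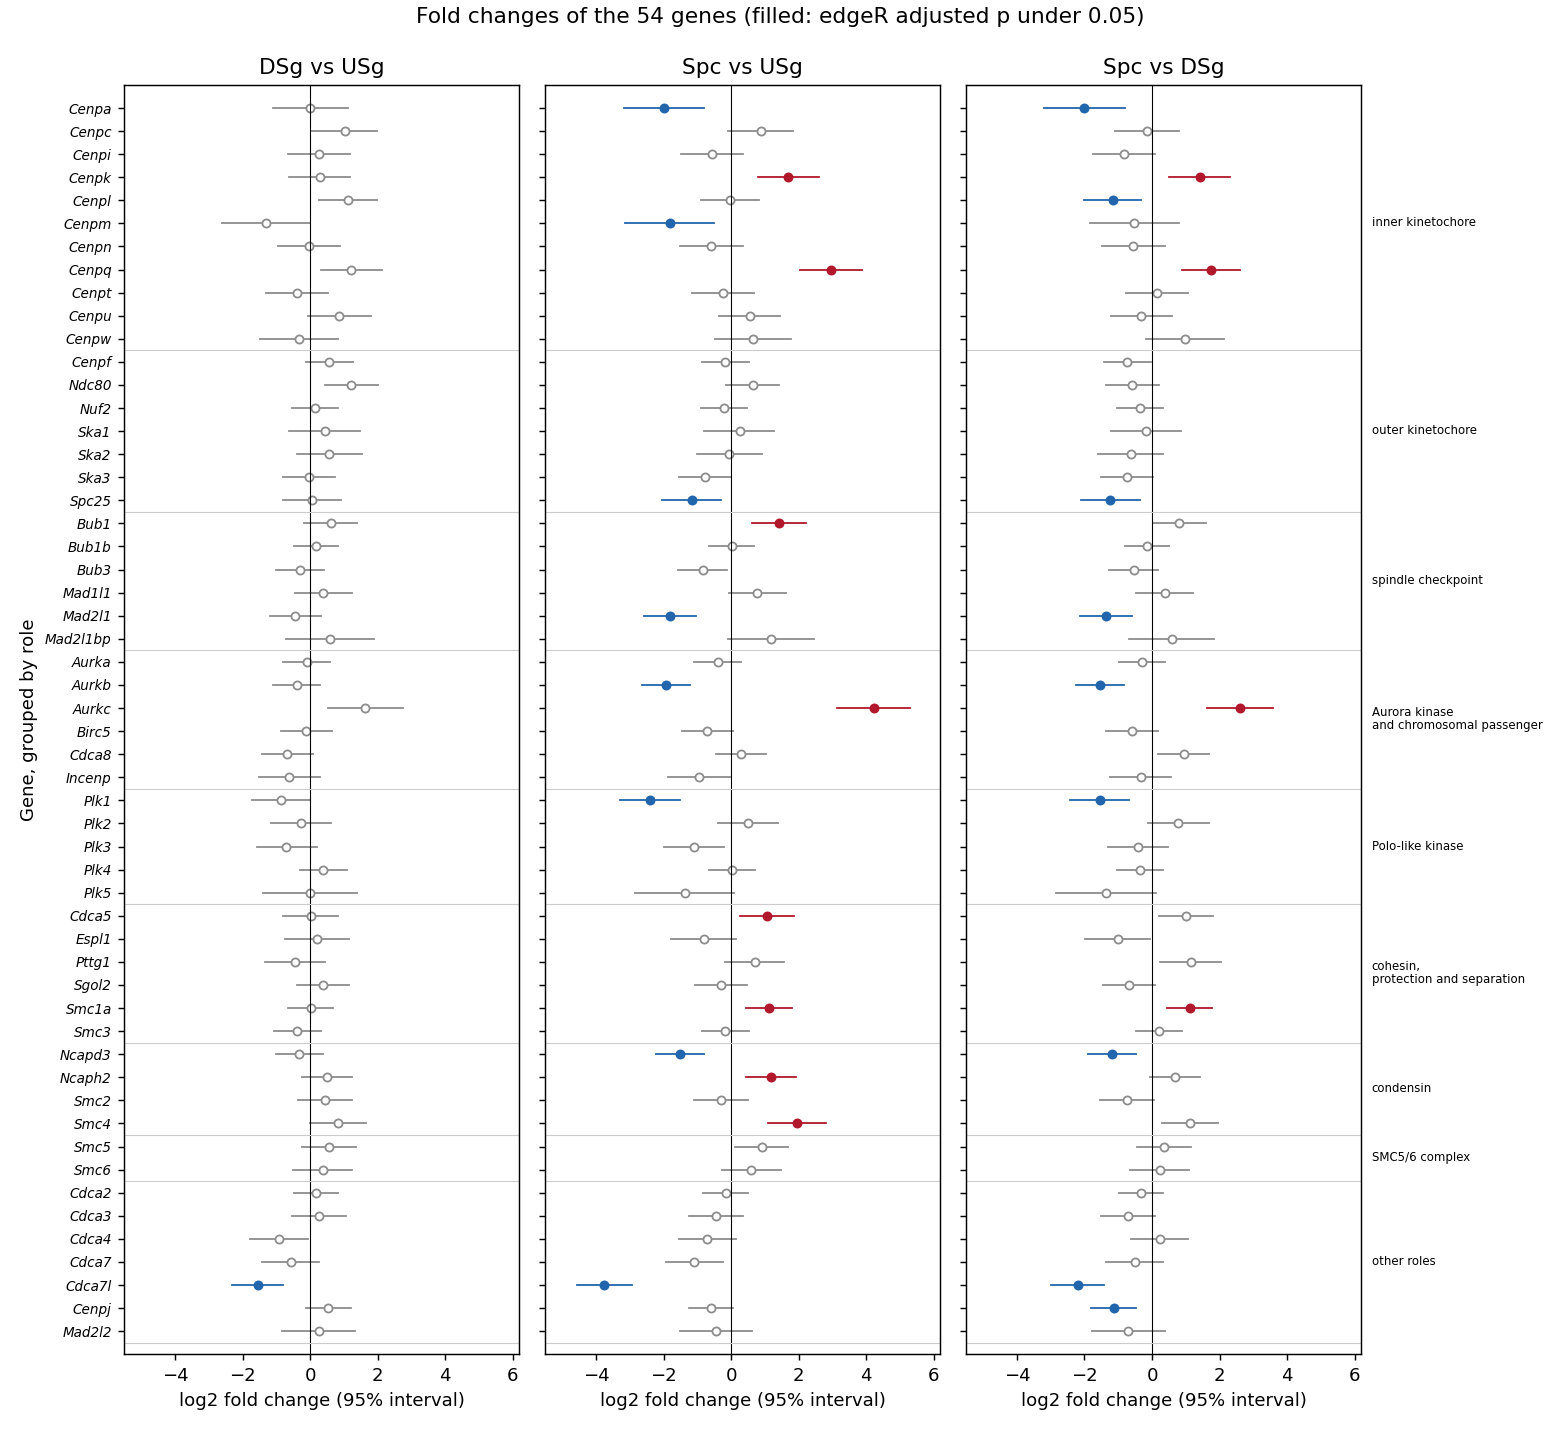
Log2 fold changes with 95% intervals (x axis) of the 54 genes (y axis, grouped by role) in the 3 comparisons, with filled points for an edgeR adjusted p under 0.05, red higher and blue lower. The left panel holds 1 filled point, Cdca7l, and the panels for Spc hold 16 and 13, spread over both directions.

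**Figure D2:**
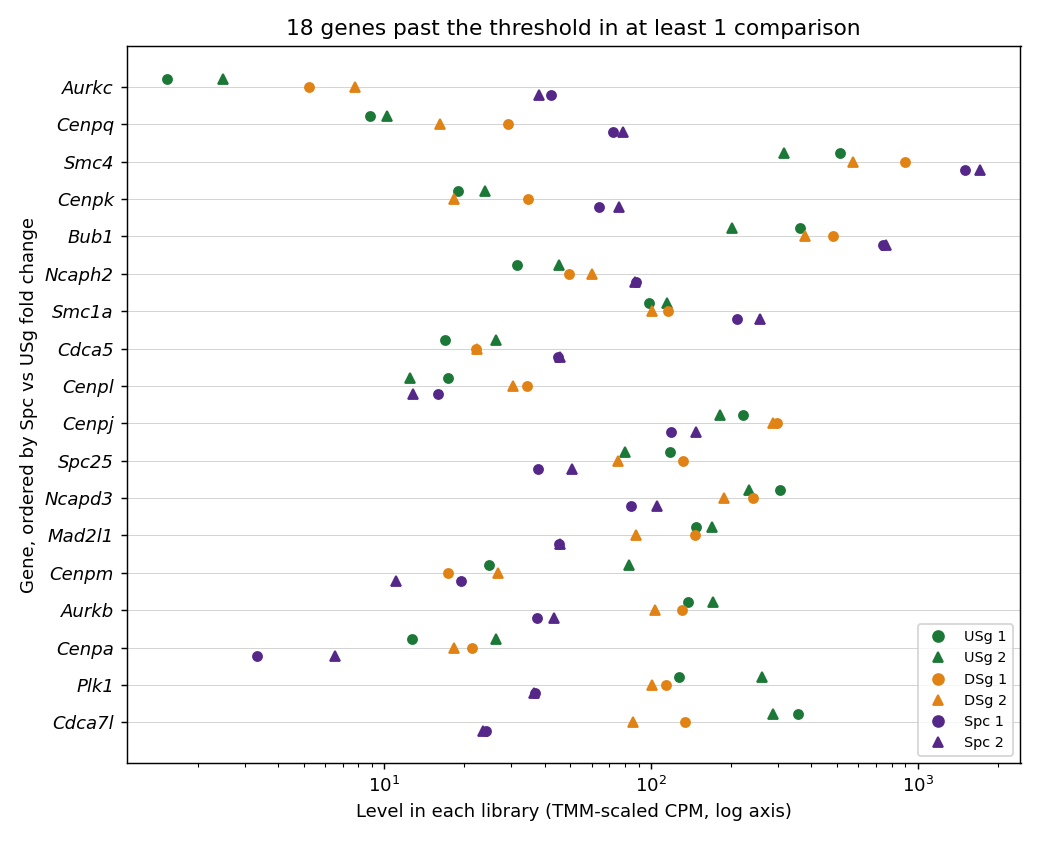
Level in each library (TMM-scaled CPM, log axis) of the 18 genes past the threshold in at least 1 comparison, ordered from the highest to the lowest fold change of Spc against USg, with circles for replicate 1 and triangles for replicate 2. Aurkc runs from 1.54 CPM in USg 1 to 42.2 in Spc 1, and Cdca7l from 356.1 in USg 1 to 23.5 in Spc 2.

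Promoters of 6 members are shown to set side by side the elements that members of both directions carry. First come 3 genes that were lower in Spc than in USg, then 3 that were higher. The 6 were picked by hand, and the lower ones do not follow the rank of fold change. Many genes of mitosis hold a CHR element (cell cycle genes homology region), through which the DREAM and MYB-MuvB complexes act, often close to a CCAAT box bound by NF-Y. The sequences are RefSeq's on GRCr8, 5′ to 3′ on the gene's strand, from 250 bases before to 30 bases after the annotated start. Capitals mark every match, on either strand, to the CHR letters TTTGAA or TTCGAA and to CCAAT. The MYB letters AACNGTT were searched too and had no match in these 6, and no matches of different motifs overlapped in them.
Plk1, chr1:186147408-186147687, plus strand: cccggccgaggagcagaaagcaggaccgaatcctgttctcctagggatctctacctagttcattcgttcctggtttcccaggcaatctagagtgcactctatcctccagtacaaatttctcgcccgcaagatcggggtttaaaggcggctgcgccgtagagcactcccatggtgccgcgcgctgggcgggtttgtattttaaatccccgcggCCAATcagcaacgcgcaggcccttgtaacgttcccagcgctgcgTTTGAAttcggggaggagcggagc
Cenpa, chr6:31431523-31431802, minus strand: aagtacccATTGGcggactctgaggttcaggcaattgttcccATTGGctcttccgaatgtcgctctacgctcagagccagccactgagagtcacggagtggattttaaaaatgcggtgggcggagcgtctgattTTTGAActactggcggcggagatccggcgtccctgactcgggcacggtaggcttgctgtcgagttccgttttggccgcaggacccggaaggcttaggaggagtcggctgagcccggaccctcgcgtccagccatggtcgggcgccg
Spc25, chr3:74396689-74396968, minus strand: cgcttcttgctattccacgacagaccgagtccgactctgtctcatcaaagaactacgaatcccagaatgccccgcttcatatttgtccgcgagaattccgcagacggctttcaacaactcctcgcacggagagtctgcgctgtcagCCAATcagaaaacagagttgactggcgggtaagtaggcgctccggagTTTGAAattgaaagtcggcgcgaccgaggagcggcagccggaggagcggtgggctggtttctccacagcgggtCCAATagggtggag
Aurkc, chr1:75882864-75883143, minus strand: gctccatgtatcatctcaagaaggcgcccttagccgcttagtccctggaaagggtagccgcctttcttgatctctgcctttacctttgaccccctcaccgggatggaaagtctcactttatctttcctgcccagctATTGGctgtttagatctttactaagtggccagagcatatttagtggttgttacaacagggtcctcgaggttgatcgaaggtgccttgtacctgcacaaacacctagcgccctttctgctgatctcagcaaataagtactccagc
Cenpq, chr9:27454089-27454368, plus strand: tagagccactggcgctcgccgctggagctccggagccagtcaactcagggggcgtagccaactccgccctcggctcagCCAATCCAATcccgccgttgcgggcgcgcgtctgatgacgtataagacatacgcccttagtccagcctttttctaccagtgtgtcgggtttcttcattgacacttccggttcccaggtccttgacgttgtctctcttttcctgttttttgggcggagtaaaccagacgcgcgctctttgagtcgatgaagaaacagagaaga
Smc4, chr2:155550012-155550291, plus strand: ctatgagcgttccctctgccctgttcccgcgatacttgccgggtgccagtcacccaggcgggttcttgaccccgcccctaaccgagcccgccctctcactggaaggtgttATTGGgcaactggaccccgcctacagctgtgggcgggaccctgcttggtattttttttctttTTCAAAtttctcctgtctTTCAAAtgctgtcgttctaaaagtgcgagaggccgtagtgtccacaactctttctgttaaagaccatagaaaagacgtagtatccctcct

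The CHR of Plk1 lay 6 bases past the start with a CCAAT box 38 bases before it, that of Cenpa 116 bases before the start, and that of Spc25 57 bases before it. Smc4 held the element at 78 and at 60 bases before its start, on the opposite strand. Aurkc and Cenpq had a CCAAT match (Cenpq a tandem pair) and no CHR letters in this window. Of the 54 genes, 53 matched the reference by symbol and 1, Sgol2, by its current name Sgo2, and 48 had a promoter entry. In the full window of 300 bases, to 50 bases past the start, 27 of those 48 promoters (56.2%) held CHR letters, beside 13.5% of the 9820 promoters of tested genes and 19.5% of all 27457 promoters. In the 280 bases printed the shares were 45.8% and 12.8%. In the full window CCAAT was found in 23 (47.9%), beside 37.6% of the promoters of tested genes, and AACNGTT in 4 (8.33%), beside 3.49%. By direction in Spc against USg, 5 of 7 lower and 3 of 8 higher genes held CHR letters in that window. So did 19 of 33 that did not pass. Of the lower genes, Cdca7l, with the largest fall (-3.75), and Ncapd3 had none, and neither is shown above. Of the higher genes, Smc4, Ncaph2 and Cdca5 held CHR letters. These are matches of letters, which describe the promoters and do not show that a factor binds.

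Of the 11 inner kinetochore genes, 2 were higher and 2 lower in Spc than in USg (36.4%, beside 34.5% of all tested genes) and 7 did not pass. Against DSg it was likewise 2 and 2 (36.4%, beside 26.5% of all), and none passed between DSg and USg (2.48% of all). Cenpa, which encodes the histone H3 variant that marks centromeres, had 12.7 and 26.2 CPM in USg, 21.4 and 18.3 in DSg, and 3.35 and 6.53 in Spc. Every Spc library was below every library of the line. The log2 fold change was -2.0 ± 0.52 against USg (adjusted p = 0.0180) and -2.0 ± 0.53 against DSg (adjusted p = 0.0231), and 0.01 ± 0.49 between DSg and USg. Without Spc 1 the adjusted p was 0.142 and 0.209, and without USg 2 it was 0.0766 against USg. Without DSg 1 and DSg 2 it was 0.105 and 0.0674 against DSg.

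Cenpq, a subunit of the inner network's CENP-O group, had 8.87 and 10.3 CPM in USg, 29.1 and 16.2 in DSg, and 72.1 and 78.4 in Spc. The 3 groups did not overlap, with USg lowest and Spc highest. Spc exceeded USg 7.76-fold (log2 2.96 ± 0.40, adjusted p = 9.53e-04) and DSg 3.35-fold (1.74 ± 0.38, adjusted p = 0.0110), and the latter call was lost without DSg 2 (0.0622) or Spc 2 (0.0508). DSg against USg was 1.21 ± 0.40 (adjusted p = 0.155). Cenpk, of the CENP-H group, had 18.9 and 24.0 CPM in USg, 34.7 and 18.3 in DSg, and 63.7 and 76.0 in Spc. It was higher in Spc than in USg (1.69 ± 0.40, adjusted p = 0.0114) and DSg (1.41 ± 0.40, adjusted p = 0.0299). The call against USg was lost without Spc 2 (adjusted p = 0.0685), and that against DSg without DSg 2, Spc 1 or Spc 2 (0.138, 0.0864 and 0.179). In the annotation Cenpk overlaps Ppwd1, which was not past the threshold in Spc (log2 -1.01 against USg), and the strand used in counting is not given in the sources used here.

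Cenpm, of the same group as Cenpk, had 24.7 and 83.0 CPM in USg, 17.4 and 26.7 in DSg, and 19.5 and 11.1 in Spc. It was lower in Spc than in USg (-1.82 ± 0.58, adjusted p = 0.0384), a value that USg 2 decided: without that library it was -0.67 with an adjusted p of 0.303. That call was also lost without DSg 1, DSg 2 or Spc 2 (adjusted p = 0.0697, 0.0653 and 0.150). Cenpl, which pairs with Cenpn, had 17.4 and 12.5 CPM in USg, 34.3 and 30.4 in DSg, and 16.0 and 12.8 in Spc. Both DSg libraries stood above those of the other groups. It was lower in Spc than in DSg (-1.16 ± 0.37, adjusted p = 0.0480) and 1.13 ± 0.38 between DSg and USg (adjusted p = 0.161). When DSg 1, DSg 2, Spc 1 or Spc 2 was left out, the adjusted p against DSg was 0.0956 to 0.448, and in DESeq2 it was 0.0615. The remaining 6 genes, Cenpc, Cenpi, Cenpn, Cenpt, Cenpu and Cenpw, passed in no comparison. Of these Cenpc, the link from centromeric chromatin to the outer plate, had the largest difference between DSg and USg, with 80.3 and 37.6 CPM in USg, 147.5 and 90.5 in DSg and 100.1 and 115.0 in Spc (1.02 ± 0.43, adjusted p = 0.239).

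The outer kinetochore holds the microtubule. Of its 7 genes, 1 (Spc25) passed in Spc against each cell line group (14.3%, beside 34.5% of all tested genes for USg and 26.5% for DSg). None passed between DSg and USg (2.48% of all). Spc25, a subunit of the Ndc80 complex, had 118.5 and 80.3 CPM in USg, 131.7 and 75.4 in DSg, and 37.8 and 50.5 in Spc. It was lower in Spc than in USg (-1.17 ± 0.39, adjusted p = 0.0451) and DSg (-1.23 ± 0.39, adjusted p = 0.0459). The first of these calls was lost without USg 1, Spc 1 or Spc 2 (0.146, 0.375 and 0.171), and the second without DSg 1, Spc 1 or Spc 2 (0.309, 0.430 and 0.187).

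Its partners in that complex gave other values. Ndc80, the subunit that binds the microtubule together with Nuf2, had 63.3 and 42.7 CPM in USg, 147.1 and 99.4 in DSg, and 78.6 and 86.0 in Spc. No DSg library overlapped with USg or Spc, and the log2 fold change between DSg and USg, 1.22 ± 0.35, did not pass in edgeR (adjusted p = 0.111) but did in DESeq2 (1.23, adjusted p = 0.0450). Nuf2 had 180.6 and 143.7 CPM in USg, 204.9 and 155.1 in DSg, and 136.4 and 146.1 in Spc, with adjusted p of at least 0.418 in every comparison. Cenpf, a large protein of the outer corona, had 826.1 and 574.6 CPM in USg, 1080 and 992.0 in DSg, and 611.6 and 631.8 in Spc. DSg was the highest group for Cenpf, without passing (0.57 between DSg and USg, adjusted p = 0.349, and -0.74 between Spc and DSg, adjusted p = 0.108). The Ska complex tracks microtubule ends. Ska1 had 27.4 and 17.3 CPM in USg, 41.6 and 18.3 in DSg, and 26.2 and 26.3 in Spc, and neither it nor Ska2 or Ska3 passed.

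Among the 6 spindle checkpoint genes, Bub1 was higher and Mad2l1 lower in Spc than in USg (33.3%, beside 34.5% of all tested genes). Mad2l1 was also lower in Spc than in DSg (16.7%, beside 26.5% of all), and none passed between DSg and USg (2.48% of all). Bub1, the kinase that marks centromeric chromatin and recruits other checkpoint proteins, had 361.6 and 201.4 CPM in USg, 481.6 and 380.0 in DSg, and 740.6 and 761.8 in Spc. The groups did not overlap. Spc exceeded USg 2.67-fold (1.42 ± 0.35, adjusted p = 0.0145), a call lost without USg 2 (0.0611), Spc 1 (0.0713) or Spc 2 (0.0793), and Spc against DSg was 0.80 (adjusted p = 0.119). Mad2l1, whose product Mad2 inhibits Cdc20 while kinetochores are not attached, had 148.2 and 169.9 CPM in USg, 146.3 and 88.3 in DSg, and 45.1 and 45.5 in Spc. Every Spc library was below the line. The change was -1.81 ± 0.34 against USg (adjusted p = 0.00426) and -1.37 ± 0.34 against DSg (adjusted p = 0.0187). Without Spc 1 or Spc 2 the adjusted p against USg was 0.0536 and 0.0541, and without DSg 1, Spc 1 or Spc 2 the p against DSg was 0.142, 0.236 and 0.212.

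Bub1b (BubR1), the checkpoint component that binds Cdc20 together with Mad2, had 162.4 and 182.3 CPM in USg, 216.6 and 173.4 in DSg, and 165.7 and 183.1 in Spc, and the groups overlapped throughout. Bub3, which brings Bub1 and Bub1b to kinetochores, had 155.9 and 196.6 CPM in USg, 153.1 and 134.1 in DSg, and 81.6 and 115.4 in Spc. Its difference between Spc and USg was -0.84 (adjusted p = 0.0683 in edgeR, 0.0473 in limma-voom). Mad1l1, the kinetochore anchor of Mad2, had 35.9 and 63.7 CPM in USg, 54.5 and 77.0 in DSg, and 82.0 and 89.9 in Spc, with 0.78 between Spc and USg (adjusted p = 0.136). Mad2l1bp, which helps to take Mad2 off its targets, ran from 4.63 CPM in USg 1 to 18.7 in Spc 1 and did not pass.

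The largest rise among the members was that of Aurkc, while the other Aurora kinases fell or did not pass. Aurkc, the Aurora kinase of germ cells, had 1.54 and 2.49 CPM in USg, 5.25 and 7.81 in DSg, and 42.2 and 38.1 in Spc. The groups did not overlap and stood in the order USg, DSg, Spc. Spc exceeded USg 18.7-fold (log2 4.23 ± 0.48, adjusted p = 4.11e-04) and DSg 6.05-fold (2.60 ± 0.43, adjusted p = 0.00325), and both calls held with each library left out. DSg against USg was 1.63 ± 0.49 (adjusted p = 0.125). Aurkb, which encodes the Aurora kinase of the passenger complex in mitosis, had 138.1 and 170.4 CPM in USg, 131.3 and 103.9 in DSg, and 37.6 and 43.5 in Spc. It ran the other way, at -1.93 ± 0.32 against USg (adjusted p = 0.00215) and -1.53 ± 0.31 against DSg (adjusted p = 0.00831). The call against USg was lost without Spc 1 (0.0508), and that against DSg without DSg 1, Spc 1 or Spc 2 (0.0652, 0.211 and 0.119). Aurka, the kinase of spindle poles, had 73.7 and 97.0 CPM in USg, 80.0 and 79.4 in DSg, and 63.5 and 66.0 in Spc and passed in no comparison. Aurkb and Aurkc are paralogs, and reads that fit both may have been shared or lost in counting.

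The other passenger complex genes did not pass. Incenp, the scaffold that activates Aurora B or C, had 119.2 and 279.7 CPM in USg, 127.3 and 134.1 in DSg, and 106.4 and 100.4 in Spc. USg 2 stood above the other libraries, and the difference between DSg and USg, -0.61, became 0.08 without it. Birc5 (survivin), which docks the complex on phosphorylated histone H3, had 83.0 and 138.7 CPM in USg, 107.5 and 98.8 in DSg, and 64.8 and 72.1 in Spc (-0.70 against USg, adjusted p = 0.139). Cdca8 (borealin) had 94.1 and 152.4 CPM in USg, 83.2 and 72.4 in DSg, and 149.4 and 150.2 in Spc. Spc lay above DSg for Cdca8 (0.95, adjusted p = 0.0649) and overlapped with USg.

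Of the 5 Polo-like kinases, Plk1 was lower in Spc than in each cell line group (20%, beside 34.5% of all tested genes for USg and 26.5% for DSg). The other 4 passed nowhere. Plk1, the kinase of mitotic entry, spindle assembly and cohesin release, had 127.7 and 261.0 CPM in USg, 114.3 and 100.7 in DSg, and 36.9 and 36.4 in Spc. The groups did not overlap. Spc was 5.32-fold lower than USg (-2.41 ± 0.39, adjusted p = 0.00210), which held with each library left out, and 2.93-fold lower than DSg (-1.55 ± 0.39, adjusted p = 0.0186), which gave an adjusted p of 0.0610 to 0.159 when DSg 1, DSg 2, Spc 1 or Spc 2 was left out. Between DSg and USg it was -0.86 (adjusted p = 0.259) and, without USg 1, -1.41 (adjusted p = 0.0300). Plk4, which starts centriole duplication, had 293.3 and 206.0 CPM in USg, 360.4 and 295.4 in DSg, and 264.3 and 246.7 in Spc. Plk3 had 32.4 and 47.2 CPM in USg, 19.4 and 29.6 in DSg, and 21.3 and 15.7 in Spc, with -1.11 ± 0.39 between Spc and USg (adjusted p = 0.0553 in edgeR and 0.0429 in limma-voom). Plk2 ran from 77.3 to 208.7 CPM and Plk5 from 3.92 to 20.7 over the 6 libraries, with replicates more than 2-fold apart in both USg and DSg for Plk5.

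Of the 6 genes of cohesin and its regulators, 2 rose in Spc against USg (33.3%, beside 34.5% of all tested genes). Against DSg 1 rose (16.7%, beside 26.5% of all), and none fell in either comparison. Smc1a, the SMC subunit of mitotic cohesin, had 98.8 and 115.2 CPM in USg, 116.0 and 100.7 in DSg, and 210.5 and 256.3 in Spc. The Spc libraries stood above all 4 of the line, at 2.18-fold USg (1.12 ± 0.30, adjusted p = 0.0184) and 2.15-fold DSg (1.11 ± 0.30, adjusted p = 0.0245). The first call was lost without USg 1, Spc 1 or Spc 2 (0.0833, 0.159 and 0.307) and the second when DSg 1, DSg 2, Spc 1 or Spc 2 was left out (0.0521 to 0.322). Ribc1, which overlaps Smc1a in the annotation, had 0.21 ± 0.37 in Spc against USg. Smc3, the SMC partner in mitotic and meiotic cohesin alike, had 784.8 and 587.8 CPM in USg, 587.9 and 468.0 in DSg, and 580.2 and 642.9 in Spc, overlapping in every comparison. Cdca5 (sororin), which protects cohesin from release, had 17.0 and 26.4 CPM in USg, 22.2 and 22.4 in DSg, and 44.9 and 45.5 in Spc. Its rise against USg (1.05 ± 0.35, adjusted p = 0.0476) was at the threshold and was lost with DESeq2 (0.0568), and with each of USg 1, DSg 1, DSg 2, Spc 1 and Spc 2 left out (0.0610 to 0.298).

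Separase, its inhibitor securin and shugoshin passed in no comparison. Espl1 (separase), which cuts cohesin at anaphase, had 98.8 and 200.8 CPM in USg, 124.4 and 221.1 in DSg, and 94.0 and 77.3 in Spc. Both Spc libraries were below the line (-1.01 against DSg, adjusted p = 0.110). Pttg1 (securin) had 26.6 and 44.5 CPM in USg, 26.3 and 26.1 in DSg, and 71.9 and 44.4 in Spc, with 1.15 between Spc and DSg (adjusted p = 0.0613). Sgol2, the shugoshin that shields centromeric cohesin in meiosis, had 306.8 and 172.9 CPM in USg, 349.5 and 274.7 in DSg, and 185.8 and 203.8 in Spc (-0.68 between Spc and DSg, adjusted p = 0.176).

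Condensin genes moved apart from each other in Spc: of 4, 2 rose and 1 fell against USg (75%, beside 34.5% of all tested genes). In the comparison with DSg, 1 fell (25%, beside 26.5% of all). Smc4 had 513.6 and 316.0 CPM in USg, 897.4 and 572.0 in DSg, and 1501 and 1712 in Spc. The groups did not overlap, and Spc exceeded USg 3.87-fold (1.95 ± 0.38, adjusted p = 0.00453), a call that held with each library left out. Against DSg it was 1.13 ± 0.37, with an adjusted p of 0.0503 in edgeR, 0.0203 in DESeq2 and 0.0239 in limma-voom. Smc2, the obligate partner of Smc4 in condensin I and II, had 509.7 and 270.3 CPM in USg, 579.0 and 487.1 in DSg, and 299.4 and 339.6 in Spc. Smc2 overlapped between Spc and USg and was -0.74 against DSg (adjusted p = 0.155).

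The condensin II subunits in the table went in opposite directions. Ncapd3 had 306.0 and 233.3 CPM in USg, 242.0 and 188.8 in DSg, and 84.5 and 105.4 in Spc, lower in Spc than in USg (-1.50 ± 0.32, adjusted p = 0.00667) and DSg (-1.18 ± 0.31, adjusted p = 0.0241). Ncaph2, the kleisin that closes the condensin II ring, had 31.6 and 45.2 CPM in USg, 49.3 and 60.3 in DSg, and 88.1 and 87.3 in Spc, higher in Spc than in USg (1.18 ± 0.33, adjusted p = 0.0234). For Ncapd3 the call against USg was lost without Spc 1 or Spc 2 (0.155 and 0.0706), and that against DSg without DSg 1, Spc 1 or Spc 2 (0.139, 0.412 and 0.209). For Ncaph2 it was lost without USg 1, Spc 1 or Spc 2 (0.0960, 0.222 and 0.198). Ncaph2 overlaps Tymp in the annotation, and Tymp was not past the threshold (-1.44 against USg, adjusted p = 0.143). The genes of the SMC5/6 complex, which acts in DNA repair, did not pass in edgeR. Smc5 had 226.1 and 135.5 CPM in USg, 314.3 and 217.8 in DSg, and 327.2 and 352.5 in Spc (0.91 against USg, adjusted p = 0.0711 in edgeR and 0.0407 in limma-voom). Smc6 had 836.5 and 437.7 CPM in USg, 979.8 and 668.1 in DSg, and 867.0 and 1062 in Spc.

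Of the 7 genes that the symbols brought in with other roles, Cdca7l moved in all 3 comparisons. Cdca7l, a Myc-interacting relative of the chromatin gene Cdca7, had 356.1 and 286.5 CPM in USg, 134.1 and 85.9 in DSg, and 24.2 and 23.5 in Spc. No groups overlapped, and the order was USg, DSg, Spc. It was 13.4-fold lower in Spc than in USg (-3.75 ± 0.36, adjusted p = 2.5e-04) and 4.60-fold lower in Spc than in DSg (-2.20 ± 0.34, adjusted p = 0.00249), both of which held with each library left out. DSg was 2.92-fold lower than USg (-1.55 ± 0.33, adjusted p = 0.0493), and this call was lost with RLE scaling (0.0533), in a fit of the 4 libraries (0.139) and without DSg 1, DSg 2, Spc 1 or Spc 2 (0.113, 0.250, 0.0556 and 0.0640). Cdca7 had 135.8 and 96.2 CPM in USg, 100.2 and 55.5 in DSg, and 50.5 and 58.6 in Spc (-1.09 ± 0.38 against USg). Its adjusted p against USg was 0.0519 in edgeR as fitted, and it passed with upper quartile scaling (0.0313), in DESeq2 (0.0368), in limma-voom (0.0453) and in the fit of the 4 libraries (0.0371). Cenpj, needed for centriole growth, had 220.7 and 181.3 CPM in USg, 297.8 and 288.1 in DSg, and 119.0 and 147.6 in Spc. It was lower in Spc than in DSg (-1.14 ± 0.29, adjusted p = 0.0213), a call lost when DSg 1, DSg 2, Spc 1 or Spc 2 was left out (0.0619 to 0.444). Cdca2, Cdca3, Cdca4 and Mad2l2 passed nowhere.

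Genes of the same machinery outside the symbol pattern were counted from lists. For single genes outside the pattern, here and below, calls with a library left out are not given. Of 20 other kinetochore genes, none passed between DSg and USg in edgeR (5 had an unadjusted p under 0.05, or 25%, beside 19.2% of all tested genes). In Spc against USg, 2 were higher and 4 lower (30% in all, beside 34.5% of all tested genes). Itgb3bp, a partner of Cenpq in the CENP-O group, had 8.10 and 11.9 CPM in USg, 38.4 and 25.3 in DSg, and 154.5 and 264.1 in Spc (4.36 ± 0.45 against USg, adjusted p = 2.93e-04). Its groups stood in the same order as those of Cenpq. Hjurp, the chaperone that loads Cenpa, had 100.7 and 136.6 CPM in USg, 122.4 and 138.7 in DSg, and 47.1 and 48.1 in Spc (-1.32 ± 0.31, adjusted p = 0.0114). Like Cenpa, it was below the line in both Spc libraries. Of 20 checkpoint and anaphase-promoting complex genes, none was higher in Spc against USg. Lower were 3 (15%, beside 16.6% of all tested genes lower and 34.5% either way). Among the lower was Trip13, which remodels Mad2 (-1.89 ± 0.41, adjusted p = 0.00839).

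The mitotic cohesin kleisin fell in Spc, while most meiotic cohesin and synaptonemal complex genes rose. Of 7 other cohesin and loader genes, 2 were higher and 1 lower in Spc against USg (42.9% in all, beside 34.5% of all tested genes). The lower was Rad21, the mitotic kleisin, with 1026 and 734.5 CPM in USg, 826.3 and 552.0 in DSg, and 206.0 and 181.4 in Spc (-2.18 ± 0.34, adjusted p = 0.00178). Of 12 meiotic cohesin and synaptonemal complex genes, 9 were higher and none lower in Spc against USg (75%, beside 34.5% of all tested genes). Against DSg it was 7 and none (58.3%, beside 26.5% of all). Of all tested genes, 17.9% were higher in Spc against USg and 14.8% against DSg. Rec8 alone (8.33%, beside 2.48% of all) was higher in DSg than in USg (2.00 ± 0.38, adjusted p = 0.0364). Smc1b, the meiotic counterpart of Smc1a, had 414.4 and 237.0 CPM in USg, 485.7 and 315.3 in DSg, and 910.1 and 1132 in Spc (1.65 ± 0.38 against USg, adjusted p = 0.0105). Smc1a and Smc1b were thus both higher in Spc.

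The lists on either side of segregation in the cell cycle gave these counts for Spc against USg. Of 36 DNA replication genes, none was higher and 15 were lower (41.7%, beside 16.6% of all tested genes lower and 34.5% either way). The median log2 fold change of the replication genes was -1.0. Among 15 mitotic entry and proliferation genes, 2 were higher and 5 lower (46.7% in all), with a median of -0.72. Ccnb1, which encodes cyclin B1, fell by 2.21 on the log2 scale (SE 0.34, adjusted p = 0.00171). Top2a, the chromosome-untangling topoisomerase, was higher (1.07 ± 0.28, adjusted p = 0.0192). Of 24 spindle and cytokinesis genes, 2 were higher and 3 lower (20.8% in all), with a median of -0.35, near the -0.18 of the 54 members. None of these 3 lists had a gene past the threshold of edgeR between DSg and USg, where 2 (5.56%), 3 (20%) and 3 (12.5%) genes had an unadjusted p under 0.05, beside 19.2% of all tested genes.

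Ratios between partner genes within a library do not depend on how libraries are scaled. They compare counts that are not corrected for gene length, so only the change of a ratio between libraries can be read, and the 7 pairs were chosen after the values were seen. Aurkc over Aurkb was 0.0112 and 0.0146 in USg, 0.0400 and 0.0751 in DSg, and 1.12 and 0.875 in Spc. Smc4 over Smc2 was 1.01 and 1.17 in USg, 1.55 and 1.17 in DSg, and 5.01 and 5.04 in Spc, so that the SMC pair of condensin did not keep its ratio. Mad1l1 over Mad2l1 was 0.242 and 0.375 in USg, 0.373 and 0.872 in DSg, and 1.82 and 1.98 in Spc. Bub1 over Bub1b was 2.23 and 1.10 in USg, 2.22 and 2.19 in DSg, and 4.47 and 4.16 in Spc. The Ndc80 over Nuf2 ratio differed from the rest in being highest in DSg (0.718 and 0.641), with 0.350 and 0.297 in USg and 0.577 and 0.589 in Spc.

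**Figure D3:**
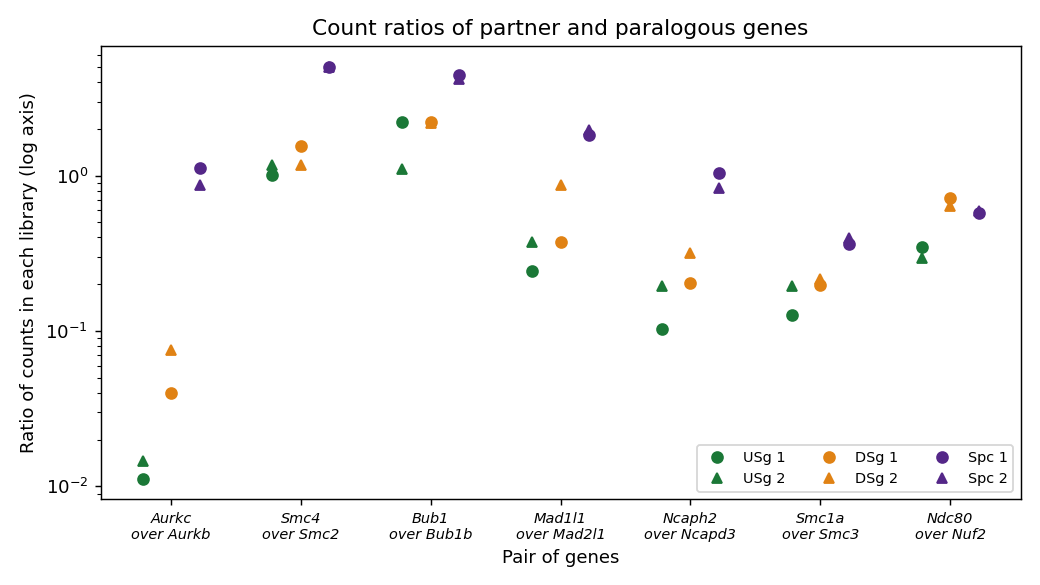
Ratio of the counts of gene pairs (x axis) in each library (y axis, log scale), coloured by group, with circles for replicate 1 and triangles for replicate 2. The ratios of Aurkc over Aurkb, Smc4 over Smc2, Bub1 over Bub1b, Mad1l1 over Mad2l1, Ncaph2 over Ncapd3 and Smc1a over Smc3 were highest in both Spc libraries, and that of Ndc80 over Nuf2 was highest in both DSg libraries.

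Summed over the 54 genes, the level was 8675 and 7551 CPM in USg, 9881 and 7944 in DSg, and 8559 and 9219 in Spc, so the total overlapped between groups while members moved within it. By group means, 15 members were ordered DSg, USg, Spc from high to low, 14 USg, DSg, Spc, and 12 Spc, DSg, USg. The order DSg, Spc, USg held for 6, Spc, USg, DSg for 4 and USg, Spc, DSg for 3. Neighbouring groups in these orders often overlapped. Of the 18 genes called anywhere, 10 overlap another annotated gene.

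The spread between replicates set what could be seen. The SD of the log2 ratio between the 2 libraries of a group was 0.74 over members in USg, 0.54 in DSg and 0.34 in Spc, against 0.95, 0.95 and 0.43 over all tested genes. Replicates were more than 2-fold apart for 11 of 54 members in USg, 4 in DSg and none in Spc. The median 95% interval of a member's log2 fold change reached 0.85, 0.85 and 0.84 either way in DSg against USg, Spc against USg and Spc against DSg. It lay wholly within 2-fold for 10, 7 and 4 members respectively, so for most of the genes that did not pass, a 2-fold difference was not excluded at this number of libraries.

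**Figure D4:**
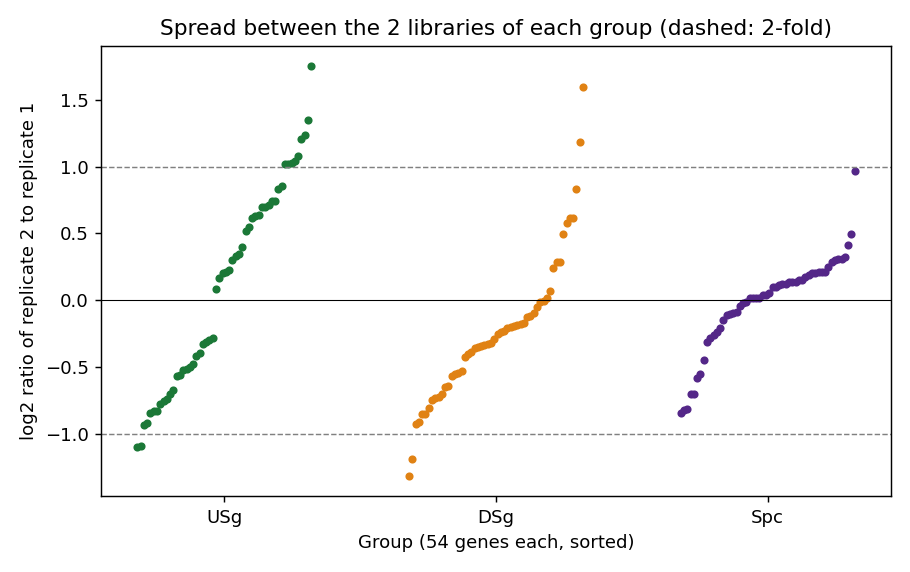
Log2 ratio of replicate 2 to replicate 1 (y axis) for each of the 54 genes, sorted within each group (x axis), with dashed lines at 2-fold. In USg 11 genes lie beyond the lines, in DSg 4 and in Spc none.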

How the data were processed

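The deposited values are raw read counts per gene symbol for 6 RNA libraries, whole numbers with a different total per library. Per the submitters' processing notes, the authors' tools included edgeR 3.2.4, featureCounts with Subread 1.4.6, and STAR 2.5.3a, beside Bowtie2 2.2.3, HOMER and Picard, and the builds were rn5 and rn6. Which tool, annotation and strand setting made the counts is not given in the sources used here, so reads of overlapping or paralogous genes may be shared or lost. All columns were mapped to samples by name. The 2 anti-Foxa2 chromatin immunoprecipitation samples were not analysed here.

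Genes passing filterByExpr (minimum count 10, minimum total 15) were tested: 12210 of 16764. Counts were scaled by TMM and fitted with edgeR 4.0.16 (quasi-likelihood, limma 3.58.1, R 4.3.3) in 1 model of the 6 libraries with 3 residual degrees of freedom, two-sided, with Benjamini-Hochberg adjustment over all tested genes and a threshold of 0.05. The SE was taken as the size of the log2 fold change divided by the root of the F statistic. The fit was tested on simulated data. Replicates differed far beyond sampling noise, and none was a duplicate. Alternatives were RLE and upper quartile scaling, no filter, DESeq2 1.42.0, limma-voom, each library left out, a replicate block, fits restricted to the 4 libraries of a comparison, USg 1 and DSg 1 left out together, and ribosomal RNA genes left out.

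The members, roles and gene lists were chosen with earlier results of these data known. Values per library are given for up to 5 members per direction and comparison past the threshold with at least 20 CPM and no overlap, and for 32 genes named whatever their result, of which 28 were in the table. Further members are named with values where they passed or lay near the threshold, chosen after their values were seen. Of each list, at most 2 genes per direction are named by size, and Smc1b and Hjurp were chosen after their values were seen. RefSeq GRCr8 tables gave promoters and overlaps.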

Additional observations from a re-analysis of the deposited data

How the results depend on the processing

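The share of all genes past the threshold is given in brackets, and it did not always move with the count of members. With RLE scaling the count between DSg and USg fell from 1 to 0 while the share rose from 2.48% to 2.53%. With upper quartile scaling the count for Spc against USg rose from 16 to 17 while the share fell from 34.5% to 34.1%. Between DSg and USg the count of members past the threshold, 1 as reported, was 0 with RLE scaling (2.53%), 0 in a fit of the 4 libraries (0.825%), 2 without a filter (6.23%), 2 with DESeq2 (6.93%) and 0 to 5 with a library left out (0% to 10.7%, 5 without USg 1), and 26 with USg 1 and DSg 1 left out together (45.1%). For Spc against USg, 16 became 7 to 20 with a library left out (16.8% to 34.8%, 7 without either Spc library) and 33 with USg 1 and DSg 1 left out (58.8%). For Spc against DSg, 13 became 24 in a fit of the 4 libraries (39.3%), 3 to 17 with a library left out (12.2% to 31.9%), and 31 with USg 1 and DSg 1 left out (59.1%). Incenp between DSg and USg turned from -0.61 to 0.08 without USg 2, and was -1.23 without USg 1. Beyond the losses named above, no filter ended the calls of Cenpj, Cenpl, Ncapd3 and Spc25 against DSg and of Cdca5 against USg, and the fit of the 4 libraries ended those of Cdca5 and Cenpm against USg. The call of Cdca5 was also lost with upper quartile scaling and without the ribosomal RNA genes. Single-gene results were followed for a selection of members and comparisons, not for every member in each comparison. Over these and every alternative, 884 results kept direction and side of the threshold, 83 crossed to past it, 82 fell short and 1 reversed. Upper quartile scaling moved the median of all genes by 0.15, -0.07 and -0.22 in DSg against USg, Spc against USg and Spc against DSg. The replicate numbers are shared across groups, but same-numbered libraries deviated together only for USg 1 and DSg 1 (correlation 0.25, against -0.27 for USg 1 and Spc 1 and 0.01 for DSg 1 and Spc 1). These 2 libraries also had the highest shares of ribosomal RNA genes (7.81% and 12.4%). Whether they shared a preparation is not said in the labels and was not tested. With a replicate block the counts were 1 (4.95%) for DSg against USg, 18 (37%) for Spc against USg and 15 (29.6%) for Spc against DSg. Cdca7 (adjusted p = 0.0368) and Smc5 (0.0403) were added for Spc against USg, and Pttg1 (0.0496) and Smc4 (0.0271) for Spc against DSg.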
